A study of Mus musculus with 9 samples.

Results

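Fibroblasts and the extracellular matrix they lay down were followed through a list of 47 genes, chosen by symbol: fibrillar, basement membrane and other collagens, elastic fibre proteins, proteoglycans, adhesive glycoproteins, collagen-processing enzymes and fibroblast surface proteins. Of the 47, 44 had a probe named here and 43 were measured, out of 21095 features tested. All 43 were well above background on all 9 arrays, so none passed through the group in which it was high. Col6a3, Col12a1 and Lox had no probe named here, and Fbln5, an elastic fibre protein, was well above background on too few arrays to be tested. Ctgf, connective tissue growth factor, stands under its newer symbol Ccn2 in the gene table used.

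The series concerned dietary calcium and colorectal cancer in mice, and its arrays measured the total RNA of colonic mucosa that the labels call normal. All mice were of the outbred ICR stock, and all, the controls included, received the colon carcinogen 1,2-dimethylhydrazine (DMH) under the skin at 20 mg/kg once a week for 20 weeks. Of 3 groups of 3 arrays, 1 ate a 3% calcium diet and had no tumors (hCA-Notumor), 1 ate the same diet and had tumors (hCA-Tumor), and 1 ate a 1.24% calcium diet (DMH, whose tumor status is labelled only as control). Ages and sexes, and whether each array stands for its own mouse, are not given in the sources used here. P-values therefore cover the spread among these arrays, technical or not, and nothing beyond it.

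Collagens are secreted as triple helices, trimmed, assembled into fibrils or sheets and crosslinked. In the gut wall, fibroblasts of the lamina propria and submucosa make most fibrillar collagen, and basement membranes lie under the epithelium and around vessels and muscle cells. Smooth muscle, pericytes and mesothelium, the lining of the outer gut surface, also make many of these proteins. In bulk tissue, fewer cells of a type and less RNA per cell cannot be told apart.

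Arrays were placed on 3 slides, with hCA-Notumor and DMH replicate 1 on slide 1, hCA-Tumor replicates 1 and 2 with DMH replicates 2 and 3 on slide 2, and hCA-Tumor replicate 3 alone on slide 3. Both high calcium groups thus shared no slide, and only the DMH arrays link them. Pearson's r over the tested features, which do not count as replicates, was 0.994 to 0.997 between arrays of 1 group on 1 slide and 0.967 to 0.984 between arrays of 1 group on different slides. Between arrays of different groups it was 0.979 to 0.983 on 1 slide and 0.959 to 0.975 on different slides. Slide thus separated arrays about as much as group did. In 13.7% of features hCA-Tumor differed at least 2-fold between slides 3 and 2. Differences from DMH reached that size in 5.39% (hCA-Notumor, slide 1) and 6.03% (hCA-Tumor, slide 2). Between 61.1 and 73.8% of probes were well above background on an array. A level below is log2 of the array's background-subtracted signal minus that array's 75th percentile, so a level of 0 is the signal at that percentile, and a difference of 1 is 2-fold. Levels of different genes come from different probes and are not compared.

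Type III collagen (Col3a1), its collagen-specific chaperone Hsp47 (Serpinh1), the mesenchymal filament vimentin (Vim) and the collagen-binding glycoprotein osteonectin (Sparc) were each lower in hCA-Notumor than in hCA-Tumor. Their promoters are shown as a choice by name from the members that the table used holds. Each is the 250 bases before the RefSeq start site on build GRCm38.p6, 5′ to 3′ on the gene's strand, with capitals marking motifs found on either strand. These are the TATA box TATAAA, the NF-Y motif CCAAT (on the other strand read as ATTGG), the Sp1 motif GGGCGG and the AP-1 motif written TGANTCA, and no 2 of them overlap in these stretches.
Col3a1, chr1:45311288-45311537, plus strand: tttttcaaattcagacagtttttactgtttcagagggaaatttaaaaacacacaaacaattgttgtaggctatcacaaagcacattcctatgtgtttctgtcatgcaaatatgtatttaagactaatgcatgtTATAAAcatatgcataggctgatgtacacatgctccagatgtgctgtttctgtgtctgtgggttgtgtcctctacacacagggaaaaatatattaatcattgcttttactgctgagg
Serpinh1, chr7:99353240-99353489, minus strand: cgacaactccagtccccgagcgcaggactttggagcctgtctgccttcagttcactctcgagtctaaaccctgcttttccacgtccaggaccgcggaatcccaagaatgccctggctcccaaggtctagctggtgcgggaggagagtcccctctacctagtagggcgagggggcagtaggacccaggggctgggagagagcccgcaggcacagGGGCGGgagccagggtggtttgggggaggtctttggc
Vim, chr2:13574061-13574310, plus strand: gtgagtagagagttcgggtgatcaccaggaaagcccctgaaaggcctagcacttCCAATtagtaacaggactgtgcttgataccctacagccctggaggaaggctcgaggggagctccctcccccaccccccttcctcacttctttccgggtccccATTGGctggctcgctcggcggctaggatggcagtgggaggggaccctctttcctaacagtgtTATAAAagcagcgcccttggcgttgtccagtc
Sparc, chr11:55420081-55420330, minus strand: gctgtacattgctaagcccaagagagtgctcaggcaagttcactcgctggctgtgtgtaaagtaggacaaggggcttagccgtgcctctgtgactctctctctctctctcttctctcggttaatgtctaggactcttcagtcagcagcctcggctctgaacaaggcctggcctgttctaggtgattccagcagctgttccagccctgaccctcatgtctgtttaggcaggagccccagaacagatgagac

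The TATAAA of Vim began 32 bases before the start and that of Col3a1 117 bases before it, while Serpinh1 held GGGCGG at 37 bases and Sparc none of the 4 motifs. Of the 47 genes 27 had an entry, with 33 start sites. Over the same 250 bases, TATAAA stood in 21.2% of those sites against 12.4% of all 32851 promoters in the table, GGGCGG in 54.5 against 32.7%, CCAAT in 27.3 against 33.8%, and TGANTCA in 6.06 against 6.75%. These matches are descriptions of letters in a window. Col4a1 and Col4a2 start 21 bases apart on opposite strands.

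High calcium mice without tumors were set against those with tumors. Of 43 matrix genes 34 were lower in hCA-Notumor and 2 were higher at an adjusted p under 0.05, or 83.7%, against 47.6% of all features (27.9% lower and 19.8% higher). The median member differed by -0.62 (range -1.5 to 0.55), and the median of all features by -0.02. In 37 of the 43 genes the arrays of both groups did not overlap, against 59.2% of all features. With the slide as a block, a fit that rests on the DMH arrays of slides 1 and 2, 29 members were lower and none of the 43 higher. That was 67.4% of members, against 31.8% of all features (3767 lower and 2932 higher). The median member was then at -0.68, and the median of all features at -0.07.

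The other comparisons set each high calcium group against DMH, and share the same 3 DMH arrays. Without tumors, 19 members were lower and 4 higher than in DMH (53.5%, against 35.6% of all features, 17.1% lower and 18.5% higher), with a median of -0.21 against 0.08 for all features. With tumors, 32 were higher and 3 lower (81.4%, against 37.2%, 22.1% higher and 15.1% lower), with a median of 0.51 against 0.09. Arrays did not overlap for 26 and 36 of 43 members, against 58% and 49.6% of all features. Without tumors that share of members was thus near the share of all features. Within slide 1, hCA-Notumor lay below DMH replicate 1 in 33 members and above it in 10 (median -0.27, all features 0.02). Within slide 2, hCA-Tumor lay above DMH in 38 members and below it in 4 (median 0.56, all features 0.06). DMH replicate 1 itself lay above its slide 2 partners in 36 members, with a median of 0.13 (all features 0.08). With the slide as a block, the difference without tumors is the one within slide 1, against DMH replicate 1 alone. The difference with tumors is then the one within slide 2, in which hCA-Tumor replicate 3 has no part. The block and the within-slide values are thus not separate checks.

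The calls without tumors were the least steady. Of the 19 lower genes, 10 kept their call with each array left out in turn and with the slide as a block (Col1a1, Col3a1, Col5a2, Col18a1, Nid1, Lamb1, Fbn1, Serpinh1, Pdgfra and Pdgfrb), and none of the 4 higher genes (Ogn, Postn, Sparcl1 and Loxl1) did. The count of 23 was 12 without hCA-Notumor replicate 1 (27.9%, against 26.2% of all features), 14 without hCA-Notumor replicate 3 (32.6 against 25.9%), 13 without DMH replicate 3 (30.2 against 24.9%) and 15 with the slide as a block (34.9 against 27.4%, 0 higher). In the first of these fits the share of members called was near that of all features, as it was with the replicate number as a block (13 members, 30.2 against 28.3%). With tumors, 30 of the 32 higher genes kept their call in the same way, all but Nid1 and Eln, as did 27 of the 34 that were lower in hCA-Notumor than in hCA-Tumor. On the authors' table, 14 members were called with tumors (12 higher, 32.6%, against 13% of all features there).

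**Figure D1:**
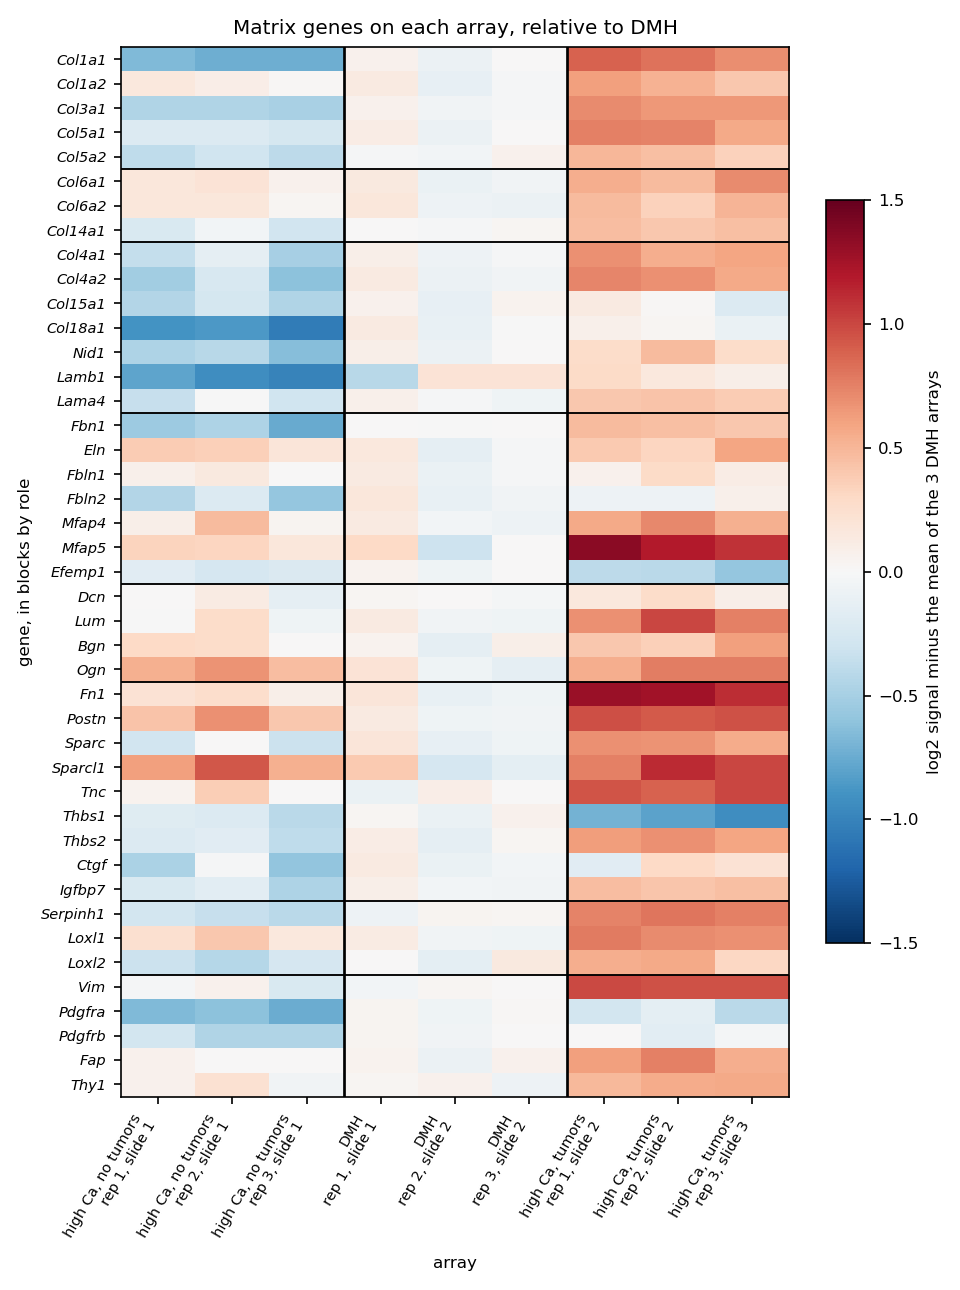
Each row is 1 of the 43 measured genes, in blocks by role, and each column 1 array, with its slide; colour gives the log2 signal minus the mean of the 3 DMH arrays. The hCA-Tumor columns are mostly red (32 genes called higher than DMH), the hCA-Notumor columns are mixed (19 called lower and 4 higher), and Thbs1 and Efemp1 run the other way.

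All 5 fibrillar collagen genes, which encode the rope-like fibrils of connective tissue, were higher in hCA-Tumor than in DMH, and 4 were lower in hCA-Notumor. Col1a1, the main chain of type I collagen, was at 3.47, 3.40 and 3.40 in hCA-Notumor, at 4.20, 4.04 and 4.14 in DMH and at 5.02, 4.94 and 4.83 in hCA-Tumor. The groups stood apart with no overlap, hCA-Notumor lowest and hCA-Tumor highest. Against DMH it fell 1.63-fold without tumors (-0.70 ± 0.07, SE, adjusted p = 0.000283) and rose 1.75-fold with them (0.80 ± 0.07, adjusted p = 0.000256), and the high calcium groups differed 2.84-fold (-1.5 ± 0.07, adjusted p = 1.42e-05). A second, dimmer Col1a1 probe gave -0.37, 0.43 and -0.80 in these 3 comparisons.

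Its partner chain in type I collagen, Col1a2, was at 4.54, 4.48 and 4.40 in hCA-Notumor, 4.52, 4.26 and 4.36 in DMH and 4.99, 4.90 and 4.79 in hCA-Tumor. Here hCA-Notumor overlapped DMH (0.09 ± 0.08, adjusted p = 0.395), and only hCA-Tumor stood above (0.51 ± 0.08 against DMH, adjusted p = 0.00304). Col3a1, of the fibrils of distensible organs, was at 5.04, 5.04 and 5.0, then 5.55, 5.44 and 5.47, then 6.20, 6.14 and 6.14 in the same order of groups, again with no overlap. It fell by 0.46 ± 0.05 without tumors and rose by 0.67 ± 0.05 with tumors. The difference between the high calcium groups was 2.19-fold (adjusted p = 1.07e-05), although a second Col3a1 probe, dim and well above background on 8 arrays, gave -0.04 there and was not called. Averaging both probes ended the Col3a1 call without tumors (-0.01). Col5a1, of type V collagen that nucleates fibrils, differed by -0.23, 0.68 and -0.91 (without tumors against DMH, with tumors against DMH, and without against with). The first of these calls ended without hCA-Notumor replicate 1, 2 or 3, hCA-Tumor replicate 1 or 2, or DMH replicate 1 or 3. With the mean of its probes, of which the dimmer was well above background on 7 arrays, the second and last calls of Col5a1 ended too (0.33, adjusted p = 0.156, and -0.18, adjusted p = 0.401). The second also ended on the authors' table (0.54, adjusted p = 0.0598).

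**Figure D2:**
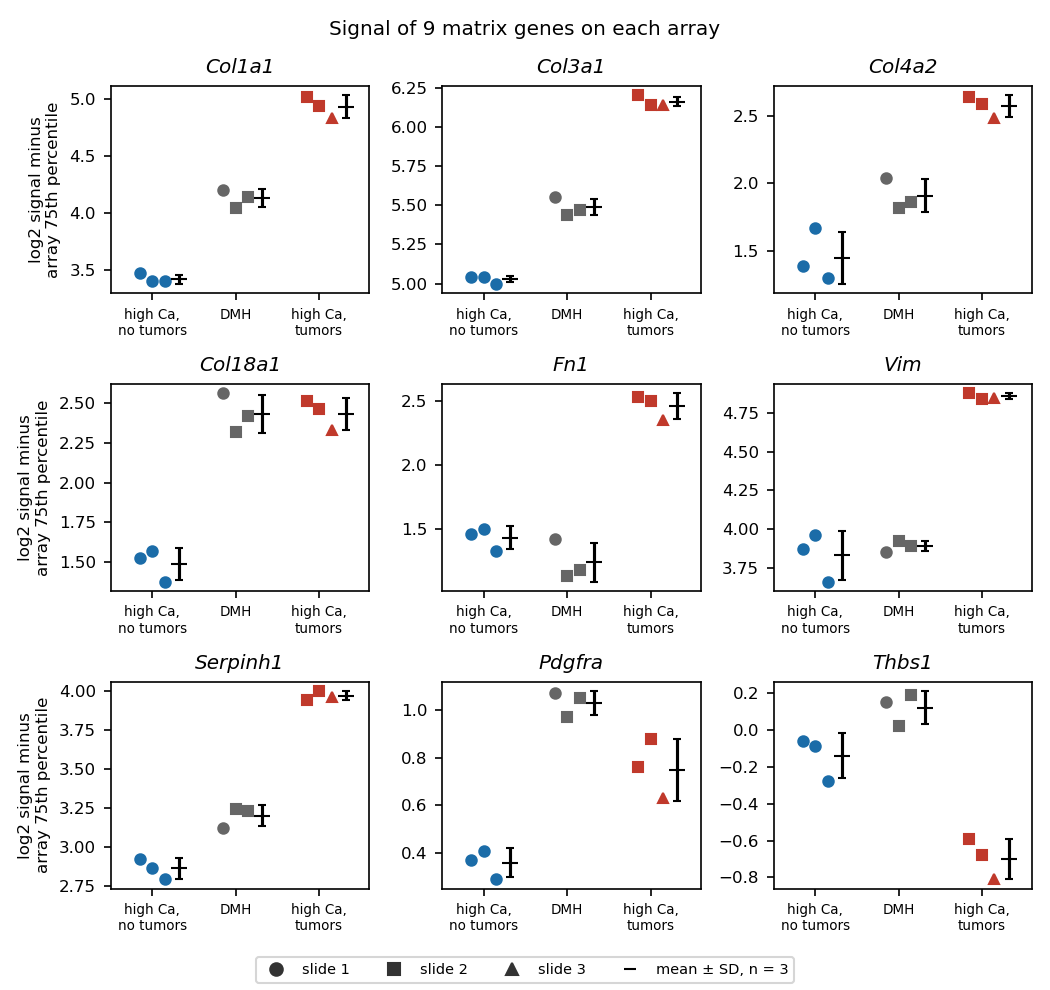
Each panel plots 1 gene's log2 signal minus the array's 75th percentile on the 9 arrays, with the group on the x axis, the slide as the marker shape, and a dash and bar for the mean ± SD of 3 arrays. Col1a1 and Col3a1 step up from hCA-Notumor to DMH to hCA-Tumor, Fn1 and Vim are high in hCA-Tumor alone, Col18a1 is low in hCA-Notumor alone, Pdgfra is highest in DMH and Thbs1 is lowest in hCA-Tumor.

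Of the collagen VI and fibril-associated collagens, which form beaded filaments or coat fibrils, 3 were measured. All 3 were higher in hCA-Tumor than in DMH and none was called without tumors. Col6a1 was at 2.38, 2.41 and 2.28 in hCA-Notumor, 2.36, 2.11 and 2.16 in DMH and 2.76, 2.68 and 2.92 in hCA-Tumor. It stood higher with tumors only (0.58 ± 0.09, adjusted p = 0.00244), and Col6a2 and Col14a1 followed with 0.44 and 0.43.

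The 7 basement membrane genes were all lower in hCA-Notumor than in hCA-Tumor, and 6 were lower in hCA-Notumor than in DMH, while 4 were higher in hCA-Tumor than in DMH. Both chains of type IV collagen, the sheet that carries the basement membrane, ranked the groups alike. Col4a1 was at 2.29, 2.51 and 2.15 in hCA-Notumor, 2.74, 2.57 and 2.63 in DMH and 3.34, 3.20 and 3.24 in hCA-Tumor. Col4a2 was at 1.39, 1.67 and 1.3, then 2.04, 1.82 and 1.86, then 2.64, 2.59 and 2.48. No groups overlapped in either gene, but hCA-Notumor replicate 2 came close to DMH in both. The differences were -0.33 and -0.45 without tumors, 0.61 and 0.67 with tumors, and -0.95 ± 0.10 and -1.12 ± 0.11 between the high calcium groups (adjusted p = 0.000281 and 0.000225). Without tumors, the Col4a1 call ended with the slide as a block (-0.43) and without hCA-Notumor replicate 1 or 3 or any DMH array, and that of Col4a2 without hCA-Notumor replicate 1 or 3. With the mean of its probes Col4a2 was at -0.32 without tumors and no longer called.

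Col18a1, the basement membrane collagen from which endostatin is cut, had another pattern. It was at 1.53, 1.57 and 1.38 in hCA-Notumor, 2.56, 2.32 and 2.42 in DMH and 2.51, 2.46 and 2.33 in hCA-Tumor. It was 1.92-fold lower without tumors (-0.94 ± 0.09, adjusted p = 0.000234), and hCA-Tumor overlapped DMH (0.00 ± 0.09, adjusted p = 0.996). A second Col18a1 probe gave -0.94, -0.06 and -0.88 in the 3 comparisons. Nid1, nidogen, which ties laminin to collagen IV, differed by -0.51, 0.34 and -0.85. Its rise with tumors ended without hCA-Tumor replicate 2, DMH replicate 2 or DMH replicate 3. Lamb1, a laminin chain, was at -0.47, -0.61 and -0.68 in hCA-Notumor and at 0.61, 0.48 and 0.41 in hCA-Tumor. Its DMH arrays split by slide, with -0.10 on slide 1 and 0.53 and 0.53 on slide 2. The difference of Lamb1 between the high calcium groups, -1.09 ± 0.17, was -0.50 with the slide as a block. The difference without tumors, -0.91 ± 0.17, was then -0.48.

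Of 7 measured elastic fibre and microfibril genes, 4 were higher and 1 lower in hCA-Tumor than in DMH, and 3 were lower in hCA-Notumor. Fbn1, fibrillin 1, the core of microfibrils, was at -0.79, -0.70 and -1.0 in hCA-Notumor, -0.24, -0.25 and -0.24 in DMH and 0.23, 0.21 and 0.16 in hCA-Tumor. It thus fell without tumors (-0.59 ± 0.08), rose with tumors (0.44 ± 0.08) and differed 2.04-fold between the high calcium groups (adjusted p = 8.08e-05). A dim second Fbn1 probe was well above background on 0 of 3 hCA-Notumor arrays. With the mean of its probes, which rests in part on that one, Fbn1 kept its call without tumors and was at 0.18 with tumors, no longer called. Mfap5, a microfibril-associated glycoprotein, was at -4.01, -4.02 and -4.17 in hCA-Notumor, -4.04, -4.65 and -4.34 in DMH and -2.99, -3.15 and -3.26 in hCA-Tumor. It was 2.31-fold higher with tumors (1.21 ± 0.15, adjusted p = 0.00103), but is a dim probe, and another background correction (normexp) left 0.46 with no call (adjusted p = 0.105). Mfap4, a related microfibril protein, rose with tumors (0.60 ± 0.12). Fbln2, which binds fibronectin and elastin, was lower without tumors (-0.41 ± 0.12), a call that ended without hCA-Notumor replicate 1 or 3 or DMH replicate 1 or 3. Efemp1, fibulin 3, was chosen after its values were seen. It was at 0.94, 0.86 and 0.89 in hCA-Notumor, 1.16, 1.05 and 1.12 in DMH and 0.72, 0.70 and 0.53 in hCA-Tumor, highest in DMH and lowest with tumors (-0.46 ± 0.06, adjusted p = 0.00157).

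Small leucine-rich proteoglycans coat collagen fibrils and set their spacing, and 3 of 4 were higher in hCA-Tumor than in DMH. Dcn, decorin, the usual marker of fibroblasts, passed no comparison. It was at 4.83, 4.94 and 4.69 in hCA-Notumor, 4.85, 4.83 and 4.79 in DMH and 4.98, 5.10 and 4.91 in hCA-Tumor, which is above DMH on every array but by only 0.17 ± 0.08 (adjusted p = 0.125). Lum, lumican, was at 0.80, 1.08 and 0.74, then 0.95, 0.76 and 0.74, then 1.49, 1.81 and 1.57, and only hCA-Tumor stood apart (0.81 ± 0.12 against DMH, adjusted p = 0.0021). Ogn, osteoglycin, was at 2.5, 2.64 and 2.43 in hCA-Notumor, 2.17, 1.90 and 1.83 in DMH and 2.51, 2.74 and 2.74 in hCA-Tumor. Both high calcium groups lay above DMH (0.55 ± 0.11 and 0.69 ± 0.11) and overlapped each other, and with the slide as a block the first was 0.35 and no longer called.

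Adhesive and matricellular glycoproteins link cells to the matrix or tune that contact, and 7 of 9 were higher and 1 lower in hCA-Tumor than in DMH. Fn1, fibronectin, was at 1.46, 1.5 and 1.33 in hCA-Notumor, 1.42, 1.13 and 1.18 in DMH and 2.53, 2.5 and 2.35 in hCA-Tumor. It was 2.33-fold higher with tumors (1.22 ± 0.09, adjusted p = 0.000198), and hCA-Notumor overlapped DMH (0.18 ± 0.09, adjusted p = 0.162). A second Fn1 probe was called without tumors (0.45, adjusted p = 0.0176) and gave 0.89 with tumors and -0.44 between the high calcium groups. Tnc, tenascin C, made in wound beds and tumor stroma, was at 0.28, 0.60 and 0.23, then 0.13, 0.33 and 0.24, then 1.17, 1.12 and 1.23, again with hCA-Tumor alone standing apart (0.94 ± 0.10). With the slide as a block, its difference between the high calcium groups was -0.62 and no longer called. Sparc was at 3.45, 3.74 and 3.42 in hCA-Notumor, 3.92, 3.62 and 3.68 in DMH and 4.43, 4.41 and 4.30 in hCA-Tumor. Its rise with tumors was 0.64 ± 0.11 (adjusted p = 0.0039). Without tumors its probes disagreed, at -0.20 (adjusted p = 0.194) for the brighter, which stands for the gene here, and -1.49 (adjusted p = 0.000492) for the other, and between the high calcium groups they gave -0.84 and -2.24.

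Postn, periostin, an integrin ligand of activated fibroblasts, was above DMH in both high calcium groups. It was at 2.29, 2.55 and 2.26 in hCA-Notumor, 1.99, 1.79 and 1.81 in DMH and 2.83, 2.78 and 2.82 in hCA-Tumor, hence 0.51 ± 0.09 and 0.95 ± 0.09. With the slide as a block the first was 0.38 and no longer called. Sparcl1, hevin, was at 5.23, 5.54 and 5.14 in hCA-Notumor, 5.0, 4.36 and 4.46 in DMH and 5.37, 5.73 and 5.61 in hCA-Tumor. Its DMH arrays split by slide, and the rise of 0.70 ± 0.19 without tumors was 0.30 with the slide as a block (adjusted p = 0.307). That Sparcl1 call also ended without hCA-Notumor replicate 1 or 2 or DMH replicate 2 or 3. The one with tumors (0.96 ± 0.19) was 1.14 with the slide as a block.

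The thrombospondins, matricellular proteins that bind and activate latent TGF-beta (Thbs1) or restrain vessel growth, differed from each other. Thbs1 was at -0.06, -0.09 and -0.28 in hCA-Notumor, 0.15, 0.02 and 0.19 in DMH and -0.59, -0.68 and -0.81 in hCA-Tumor, 1.76-fold below DMH with tumors (-0.82 ± 0.09, adjusted p = 0.000588). Another Thbs1 probe gave -1.27 there, and the remaining one was well above background on 0 of 3 hCA-Tumor arrays. Between the high calcium groups Thbs1 was higher without tumors (0.55 ± 0.09), which with the slide as a block was 0.44 and no longer called. Thbs2 was higher with tumors (0.63 ± 0.08) and lower without them (-0.25 ± 0.08, adjusted p = 0.0486), the latter a call that ended without any 1 of 7 arrays (all but hCA-Tumor replicate 3 and DMH replicate 2).

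The 3 measured genes of collagen folding and crosslinking were all higher in hCA-Tumor than in DMH. Serpinh1 was at 2.92, 2.86 and 2.79 in hCA-Notumor, 3.12, 3.24 and 3.23 in DMH and 3.94, 4.0 and 3.96 in hCA-Tumor, with no overlap. It fell without tumors (-0.34 ± 0.05, adjusted p = 0.00297), rose with tumors (0.77 ± 0.05, adjusted p = 0.00015) and differed 2.16-fold between the high calcium groups (adjusted p = 2.07e-05). Of the lysyl oxidase-like enzymes, which start the crosslinks, Loxl1 was above DMH in both groups (0.27 ± 0.08 and 0.72 ± 0.08), though without tumors the call ended with the slide as a block (0.15) and without hCA-Notumor replicate 1 or 2, hCA-Tumor replicate 1 or 2, or DMH replicate 2 or 3. Loxl2, near -4 on every array, differed by -0.33 and 0.47, but neither call held under normexp correction, which gave 0.01 and 0.22.

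Of 5 genes for fibroblast surface proteins and the filament vimentin, 3 rose and 1 fell with tumors. Vim was at 3.87, 3.96 and 3.66 in hCA-Notumor, 3.85, 3.92 and 3.89 in DMH and 4.88, 4.84 and 4.85 in hCA-Tumor, 1.96-fold above DMH (0.97 ± 0.08, adjusted p = 0.000216) with hCA-Notumor overlapping DMH. Fap, fibroblast activation protein, rose by 0.64 ± 0.07 with tumors, but by 0.17 under normexp correction, with no call. The receptors of platelet-derived growth factor did not rise. Pdgfra, found on fibroblasts, was at 0.37, 0.41 and 0.29 in hCA-Notumor, 1.07, 0.97 and 1.05 in DMH and 0.76, 0.88 and 0.63 in hCA-Tumor, below DMH by 0.67 ± 0.07 (adjusted p = 0.000514) and 0.27 ± 0.07 (adjusted p = 0.0227) in the high calcium groups. The second of these ended with the slide as a block (-0.19) and without hCA-Tumor replicate 1, DMH replicate 1 or DMH replicate 3. Pdgfrb, found on pericytes and fibroblasts, was lower without tumors (-0.39 ± 0.07) and at -0.06 ± 0.07 with them (adjusted p = 0.545).

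**Figure D3:**
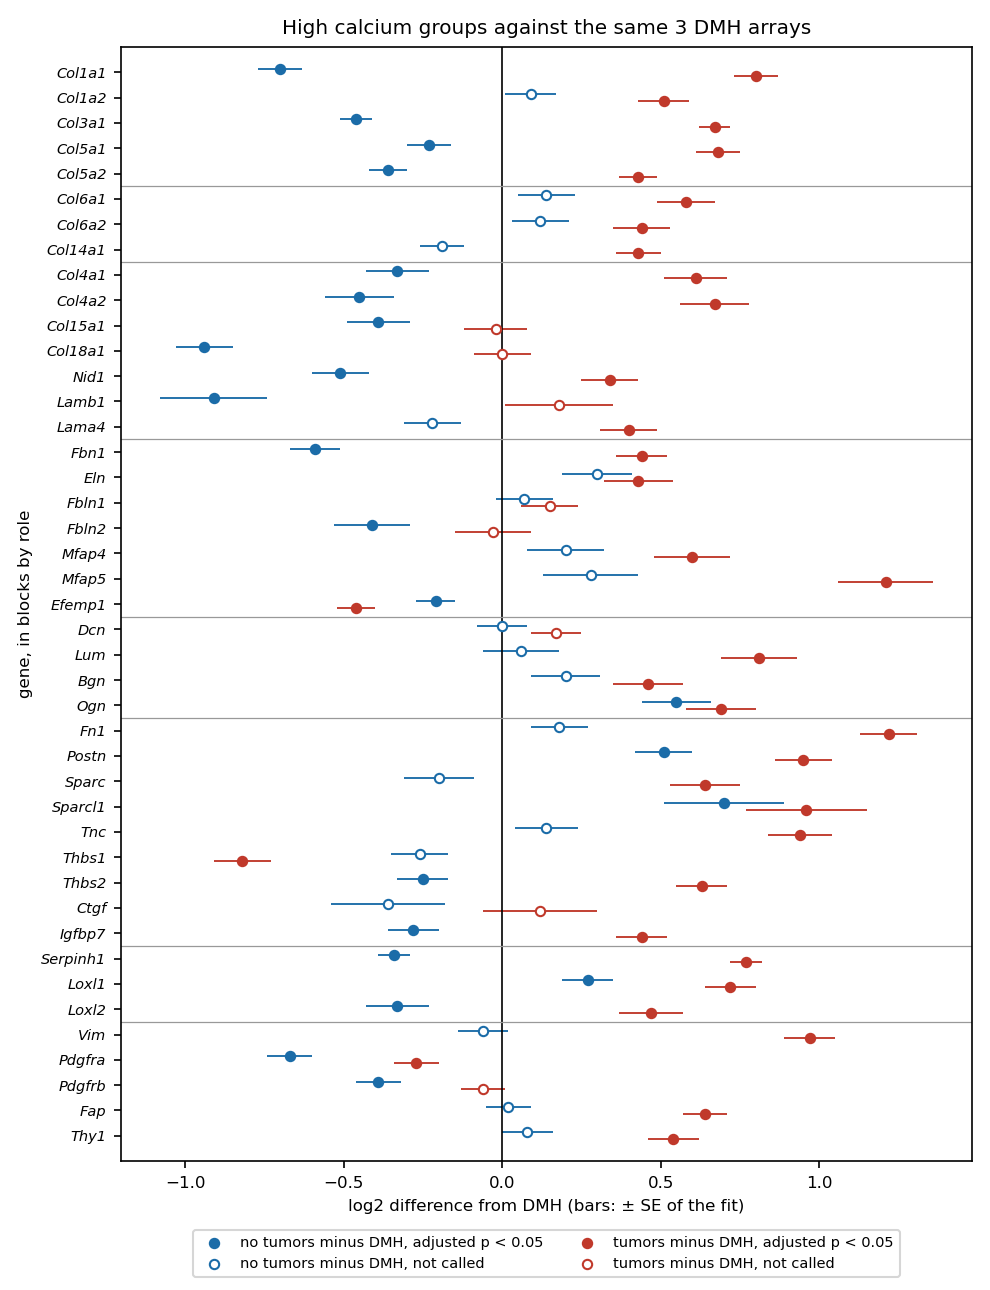
Points are log2 differences from DMH for each measured gene, blue without tumors and red with tumors, filled where the adjusted p was under 0.05, with bars of 1 standard error. Both colours are measured against the same 3 DMH arrays; red runs from -0.82 (Thbs1) to 1.22 (Fn1) and blue from -0.94 (Col18a1) to 0.70 (Sparcl1).

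The other 10 measured genes (Bgn, Col15a1, Col5a2, Ctgf, Efemp1, Eln, Fbln1, Igfbp7, Lama4 and Thy1) stayed within -0.79 and 0.54. Fbln1 and Ctgf, named here with Thy1 after their values were seen, passed no comparison between groups. Thy1, a fibroblast surface glycoprotein, rose with tumors on its brighter probe (0.54), and its dimmer probe gave 0.73 without tumors, where the brighter gave 0.08. Between the high calcium groups the Thy1 probes were called in opposite directions, at -0.46 (adjusted p = 0.00249) for the brighter and 0.36 (adjusted p = 0.00391) for the dimmer, and their mean was -0.05 and not called. The place of Thy1 among the 34 lower genes thus rests on the brighter probe, whose call also ended with the slide as a block (-0.49, adjusted p = 0.0655). With both high calcium groups averaged against DMH, 19 members were higher and 5 lower (55.8%, against 31.4% of all features, 18.4% higher and 13% lower), with a median of 0.14 against 0.08. The arrays of both groups lay apart from DMH in 8 of 43 members, a share near the 20% of all features. Without DMH replicate 2 or 3 the count of 24 was 15 or 14 (34.9 and 32.6%, against 22.3 and 20.3% of all features).

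Across the 9 arrays, Sparc and Thbs2 followed the mean of the other members most closely (r = 0.99 each), while Thbs1 (-0.77) and Efemp1 (-0.70) ran against it and Pdgfra was at 0.32. These coefficients describe 9 arrays in 3 groups that share slides.

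Genes around the members were counted from lists of their own, and each difference given for a gene of these lists had an adjusted p under 0.05. Of 19 enzymes that modify or trim collagen, 3 were higher and 2 lower without tumors than in DMH, 8 higher and 3 lower with tumors, and 3 higher and 7 lower in hCA-Notumor than in hCA-Tumor. The shares called were 26.3, 57.9 and 52.6%, against 35.6, 37.2 and 47.6% of all features. P4ha2, a prolyl hydroxylase subunit, went by -0.30, 0.58 and -0.88 in these comparisons, and Adamts2, which removes the procollagen N-propeptide, by 0.71 with tumors and -0.88 between the high calcium groups. Pcolce2, a procollagen C-proteinase enhancer, fell by 1.15 without tumors and was at -1.34 between the high calcium groups. Colgalt1, which adds galactose to hydroxylysine, went the other way, 0.35 without and -0.26 with tumors.

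Of 21 TGF-beta and PDGF genes, the main fibroblast growth signals, 2 were higher and 6 lower without tumors, 8 higher and 1 lower with tumors, and 12 lower and none higher in hCA-Notumor than in hCA-Tumor. The shares called, 38.1, 42.9 and 57.1%, were near those of all features (35.6, 37.2 and 47.6%), but their directions were less even. Without tumors 9.52% were higher and 28.6% lower, against 18.5 and 17.1% of all features. With tumors 38.1% were higher and 4.76% lower, against 22.1 and 15.1%. Between the high calcium groups 0% were higher and 57.1% lower, against 19.8 and 27.9%. Smad7, an inhibitor that TGF-beta itself induces, was at -2.11 without tumors and -3.09 between the high calcium groups, with 2 of 3 hCA-Notumor arrays well above background. The ligands Tgfb2 (0.69) and Tgfb3 (0.57) and the common mediator Smad4 (0.62) were higher with tumors. Tgfb1, the ligand best known in fibrosis, was lower in both, at -0.27 and -0.34, and was named after its values were seen.

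Of 20 matrix receptors, 7 were higher and 5 lower without tumors, and 7 higher and 5 lower with tumors, or 60% each time, against 35.6 and 37.2% of all features. Itga5, the fibronectin receptor chain, was higher in both (1.39 and 0.92), as was Itga8 (0.94 and 1.18), while Itga2, a collagen receptor chain, was lower with tumors (-1.42), where 2 of 3 arrays were well above background. Cd44, the hyaluronan receptor, was at -1.16 without tumors, and Dag1, dystroglycan, and Itga6, a laminin receptor chain, at 1.37 and 1.27 between the high calcium groups. Of 30 other matrix genes, 5 were higher and 11 lower without tumors, and 20 higher and 4 lower with tumors (53.3 and 80%). Aspn, asporin, rose with tumors (1.29), as did Col8a1 (1.03), Spp1, osteopontin, fell in both groups (-2.67 and -1.86), and Col5a3 went by -0.97 without tumors and -1.51 between the high calcium groups. Col17a1, a hemidesmosome collagen of epithelial cells, fell without tumors (-2.44).

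Markers of some other cells moved with the members and those of others did not, and their part in the results was not tested. Shares of markers called against DMH are to be read beside those of all features, 35.6% without tumors and 37.2% with tumors. Summed over its markers on a linear scale, where 1 is the array's 75th percentile, fibroblast genes (7 measured, 6 of them members) reached 92.9 to 101 in hCA-Notumor, 112 to 122 in DMH and 162 to 174 in hCA-Tumor. Such a sum weighs its brightest genes most, here the collagens Col3a1, Col1a1 and Col1a2 and also Dcn. Of the 7, 4 were lower without tumors, and 4 higher and 1 lower with tumors (57.1 and 71.4%). Dcn passed no comparison, and Pdgfra was highest in DMH. Mesothelial markers ranked the groups in the same order as the fibroblast sums, with sums of 0.801 to 0.861, 2.07 to 2.43 and 2.80 to 3.33. All 5 were called lower without tumors and higher with tumors than in DMH. Upk3b was well above background on 0 of 3 hCA-Notumor arrays, and Wt1 on 0 of 3 hCA-Notumor, 0 of 3 DMH and 3 of 3 hCA-Tumor arrays. The order of Wt1 between hCA-Notumor and DMH thus rests on signals not well above background. Smooth muscle sums were 460 to 576 in hCA-Notumor, 249 to 426 in DMH and 657 to 858 in hCA-Tumor, with 9 of 12 markers higher without tumors and 12 of 12 with tumors (75 and 100%). The DMH sums split by slide, at 426 on slide 1, which holds all hCA-Notumor arrays, and 301 and 249 on slide 2. Pericyte sums were 4.84 to 6.12, 3.81 to 4.67 and 7.36 to 7.49, with 2 and 5 of 6 markers higher (33.3 and 83.3%). Single pericyte markers disagreed between the high calcium groups, with 1 higher and 4 lower in hCA-Notumor (range -2.01 to 1.99). Sums of enteric glia and neurons were 4.16 to 6.09, 3.51 to 4.0 and 6.38 to 8.63, with 1 and 5 of 7 higher (14.3 and 71.4%). Without tumors the pericyte share was thus near that of all features, and the glia and neuron share below it.

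Adipocyte sums went another way, at 6.56 to 12.4 in hCA-Notumor, 45.4 to 50.6 in DMH and 11.7 to 19.6 in hCA-Tumor, with 8 and 7 of 9 markers lower (88.9 and 77.8%). Squamous epithelium sums, of a cell type not native to the colon, were 1.41 to 1.62, 5.44 to 5.90 and 3.85 to 4.15, with 5 of 6 lower without tumors, and 2 lower and 1 higher with tumors (83.3 and 50%). Intestinal epithelium markers, which check the labelled tissue, were high in all groups, at 1570 to 1710, 1300 to 1510 and 1570 to 1630, with 4 of 10 higher without tumors, and 3 higher and 1 lower with tumors. Those shares, 40% each time, were near the 35.6 and 37.2% of all features. Endothelial sums overlapped between groups, lying between 9.89 and 11.9 on all 9 arrays. Of 10 endothelial markers 1 was higher and 1 lower without tumors, and 2 higher and 1 lower with tumors (20 and 30%). Between the high calcium groups 5 were higher and 1 lower in hCA-Notumor (range -1.09 to 0.37), or 60%, against 47.6% of all features. Of 6 macrophage markers 2 were lower without tumors and 3 with tumors (33.3 and 50%), the first share near that of all features. Over the 9 arrays, the list mean of mesothelium had r = 0.92 with the mean of the 43 members, enteric glia and neurons 0.84, pericytes 0.70, squamous epithelium 0.64, smooth muscle 0.59, endothelium 0.24, adipocytes -0.04, macrophages -0.09 and intestinal epithelium -0.23, again over 3 groups that share slides.

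**Figure D4:**
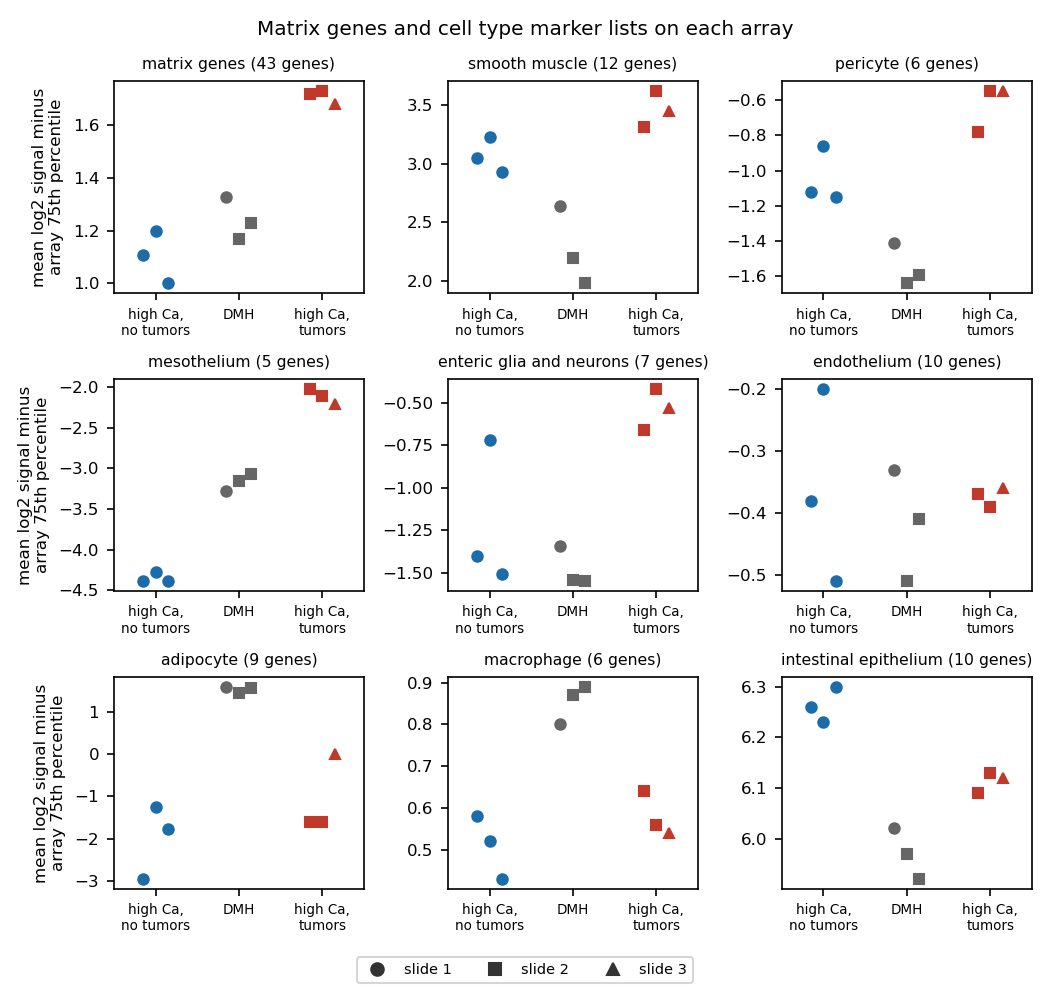
Each panel gives the mean log2 signal (minus the array's 75th percentile) of the matrix genes or of a cell type marker list on each of the 9 arrays, with the group on the x axis and the slide as the marker shape; the y axes differ between panels. Mesothelial markers rank the groups as the matrix genes do, smooth muscle and pericyte markers are lowest in DMH, and adipocyte and macrophage markers are highest in DMH.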

How the data were processed

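RNA of 9 samples of colonic mucosa had been hybridised to Agilent 1-colour arrays. Per the file headers, the deposited intensity values are green-channel processed signals with background subtracted, made with Agilent Feature Extraction 10.5.1.1 per the submitters' processing notes and annotated on mouse build mm9. For 23726 probes the authors deposited log2 values in 1 table, equal to the log2 processed signal minus each array's median (r at least 0.999994, column medians 2.36 to 2.8) and chosen by a rule not given in the sources used here.

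From the intensities, spots of a probe were averaged after leaving out control and outlier spots, and from their log2 the 75th percentile of the array (534.2 to 772.6 before log2) was subtracted, so that arrays are centred on bright probes. No spot was saturated (0), and precision is limited by the number of arrays. Of 41174 probes, 27207 passed as well above background throughout at least 1 group of 3 arrays. Accessions were named through a RefSeq table (GRCm38.p6), giving 25097 probes 1 symbol. The brightest kept probe stood for a gene, giving 21095 features (14193 named). Contrasts were fitted on all 9 arrays with limma 3.58.1 (lmFit, eBayes) in R 4.3.3, adjusted by Benjamini-Hochberg over all features at 0.05, and checked on simulated data. Errors are standard errors of that fit, with n = 3 arrays per group.

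Values on each array were due for 33 members: in each contrast, the 8 largest called differences without overlap and up to 2 per role, plus a panel of 10; of the companion lists, up to 3 called genes per contrast. The text gives a choice of these, and 1 companion gene that met the rule is not reported here. Members and lists were chosen with earlier results of these data known. Alternatives were normexp correction (offset 50), quantile normalization, the authors' table, both other background filters, the mean of a gene's probes, the slide or the replicate number as a block, only the compared groups, and each array left out. Replicate numbers did not pair the samples.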

Additional observations from a re-analysis of the deposited data

Results flagged for a closer look

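The genes below passed the test in opposite directions against DMH in the high calcium groups, lower without tumors and higher with them. The comparison without against with tumors is the difference of those effects. That it also passed follows from this choice of genes and adds no support. Both effects use the same DMH arrays. That difference was -1.5 for Col1a1, -1.13 for Col3a1, -0.91 for Col5a1 and -0.79 for Col5a2 among the fibrillar collagens. In the basement membrane it was -0.95 for Col4a1, -1.12 for Col4a2 and -0.85 for Nid1, and in microfibrils -1.03 for Fbn1. It was -0.88 for Thbs2, -0.73 for Igfbp7, -1.11 for Serpinh1 and -0.81 for Loxl2. Of these, Col5a1, Col4a1, Col4a2, Thbs2, Igfbp7 and Loxl2 lost their call against DMH without tumors when some array was left out. Nid1 lost its call with tumors without hCA-Tumor replicate 2, DMH replicate 2 or DMH replicate 3. On the authors' table only Col1a1, Col3a1 and Serpinh1 of these genes kept their call with tumors. Col5a2 (0.29) and Fbn1 (0.30) were among those that lost it there. With the mean of its probes Col3a1 lost its call without tumors (-0.01). With 3 arrays per group no single array was tested as an outlier.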

How the results depend on the processing

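Of 1692 values of called member differences under the alternatives, 1495 kept direction and call, 195 lost the call and 2 reversed, neither of the 2 being called: Loxl2 without tumors against DMH was 0.01 under normexp correction, and Col5a1 0.15 with the mean of its probes. Sign changes of values that had not passed were not counted as reversals, and occurred 25 times in 14 members. Under normexp correction, features called were 3831 (without tumors against DMH), 4156 (with tumors), 6276 (without against with) and 3191 (both groups against DMH), and the median member between the high calcium groups was -0.45. On the authors' table they were 3339, 2403, 4783 and 2144, and medians were -0.40 without tumors and -0.02 for both groups. Members called there were 13 without tumors (30.2%, against 18.1% of all features), 14 with (32.6 against 13%) and 8 for both groups (18.6 against 11.6%). That table is centred on array medians, which moves the median of all features to -0.14 without tumors, -0.06 with, -0.09 between them and -0.11 for both, and members relative to all features were then at -0.26, 0.43 and -0.58 in the first 3, against -0.29, 0.42 and -0.60 here. Of its calls 29.3, 39.5, 37.0 and 30.3% were higher, against 51.9, 59.5, 41.5 and 58.6% here, and of its member calls 0 of 13 were higher without tumors, 12 of 14 with tumors and 5 of 8 for both groups. Without the filter on dim probes 13 members were called without tumors (30.2%, against 17.5% of all features). With the slide as a block, 15 were, and features between the high calcium groups numbered 6699. The replicate block, where same-numbered arrays did not deviate together (r from -0.57 to 0.22), gave 13 members without tumors and stayed within 1.5 times for the other counts. Those 13 were 30.2% of members, near the 28.3% of all features called there. Leaving out 1 array gave 12 to 25 members and 5245 to 9447 features without tumors, 32 to 35 and 5962 to 8133 with tumors, 32 to 38 and 8294 to 12300 between the high calcium groups, and 14 to 26 and 4272 to 7520 for both groups against DMH. The medians then ran from -0.26 to -0.17, 0.45 to 0.55, -0.69 to -0.58 and 0.10 to 0.18. The fewest features for both groups came without DMH replicate 3. The cause of these changes was not tested. Dim members (Mfap5, Loxl2 and Fap) lost all their calls under normexp correction.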
